A study of Mus musculus with 22 samples.

Results

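The 44 genes described here serve protein folding in the endoplasmic reticulum (ER) and the unfolded protein response, and they were followed through 6 cell populations of the mouse colon crypt. They were taken by name from the count files, and all 44 were found among the 24421 genes listed there. By role they comprised 8 sensors and transcription factors, 11 chaperones and co-chaperones, 5 protein disulfide isomerases, 9 genes of ER-associated degradation and 11 genes of the translocon and signal peptidase. The cells came from the colons of untreated wild-type male C57BL/6N mice of 5 to 7 weeks of age, with no transgene and no treatment in any group, and were separated by flow sorting as live Cd31- Cd45- Epcam+ cells. Stem cells were Cd44 highest, Cd24 low and Ckit-. Absorptive progenitors (AbsPro) had medium to high Cd44, low Cd24 and no Ckit. The mixed gate of secretory progenitors, deep crypt secretory cells and goblet cells (SecPDG) had high Cd44, medium Cd24 and medium Ckit. The study's text differs here, giving medium Cd44 for SecPDG and describing Kit protein as detectable in tuft cells only. Tuft cells were Ckit+ and Cd24 high, enterocytes (Ent) had low or no Cd44 and no Cd24, and enteroendocrine cells (EEC) had low or no Cd44 and were Cd24+. Bulk RNA-seq libraries numbered 3 for Stem, 3 for AbsPro, 4 for SecPDG, 5 for tuft cells, 5 for Ent and 2 for EEC. Each Stem and AbsPro library came from 1 mouse, whereas the other libraries pooled several mice, and each held RNA of at least 2500 sorted cells.

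Secreted and membrane proteins enter the ER through the Sec61 channel, lose their signal peptide, and fold with the help of chaperones and of isomerases that form disulfide bonds. Proteins that fail to fold are drawn back to the cytosol and degraded. When unfolded protein builds up, the Ire1 endonucleases splice the Xbp1 message, Atf6 is cut free of the membrane, and the kinase Perk slows translation while favouring Atf4. These branches raise the transcription of the folding machinery. Cells that secrete much protein, such as the mucus-filled goblet cells of the colon, are known for an extensive ER. Counts per gene do not separate the spliced from the unspliced Xbp1 message, nor the cleaved from the membrane-bound forms of Atf6 and the Creb3 family, so the values below are total transcript levels.

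Counts on genes ranged from 15314543 to 22462518 per library in Stem, AbsPro and SecPDG, from 9930648 to 20892532 in tuft cells, from 5950619 to 12966128 in Ent and from 4122122 to 13132315 in EEC. The mean share of read pairs outside genes was 43.7% in SecPDG, 47.1% in Stem, 47.7% in AbsPro, 60.9% in tuft cells, 76.3% in Ent and 77.1% in EEC. Tuft 5 stood apart from the other tuft libraries, with 43.4% of pairs outside genes against 59.5% to 68.0%. The 2 EEC libraries had 89.7% and 64.5%, and their Spearman correlation over genes was 0.729, whereas replicates of the other cell types reached 0.874 to 0.973. Values below are normalized counts, that is, counts scaled by library total and TMM factor to the mean library. A gene was called changed where edgeR's quasi-likelihood test, fitted once to all 22 libraries, gave a Benjamini-Hochberg adjusted p below 0.01 and the gene had a mean of at least 50 normalized counts. Of 22781 genes tested, 13188 reached that mean, among them 43 of the 44 genes; Derl3 did not, at a mean of 23.0. A gene that did not pass was not thereby shown to be unchanged. In simulated data, 1.47% of planted changes of 1 (log2) between SecPDG and Stem were recovered, and 54.5% of changes of 2. The study's methods describe the replicates as separate mice, or separate pools of mice, from separate sorts. In bulk libraries, fewer cells of a type and less RNA per cell cannot be told apart. The SecPDG and tuft files were also named in another form than the files of the other 4 cell types. If that form marks a sequencing run, run and cell type cannot be told apart in SecPDG or tuft cells against Stem or in SecPDG against AbsPro, whereas tuft against SecPDG, and AbsPro, Ent or EEC against Stem, lie within 1 form.

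The unfolded protein response acts on DNA through short promoter elements, which are shown first because they are the known link between the sensors and the folding genes. The ER stress response element (ERSE), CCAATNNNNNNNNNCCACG, and its shorter relative ERSE-II, ATTGGNCCACG, were searched on both strands in the RefSeq promoters of GRCm38.p6, the build called mm10, each running from 250 bases before to 50 bases after a transcription start. Of the 44 genes, 34 had a promoter entry, and 10 did not: Atf6, Creb3l1, Derl1, Ern2, Hyou1, Manf, Sec11c, Sec61a1, Spcs3 and Ssr2. An ERSE match lay in the promoters of 9 of the 34 genes (26.5%), against 37 of 27025 mouse genes with an entry (0.137%). An ERSE-II match lay in 2 of the 34 (5.88%), against 12 of all genes with an entry (0.0444%). Because the genes were chosen for their part in this response, the higher shares describe the choice and are not a test. In none of the 34 did matches of both elements occur together. The UPRE core TGACGTGG and the CRE TGACGTCA, also searched on both strands, were found in 0 of the 34 genes, against 0.714% and 2.03% of all genes with an entry, shares at which fewer than 1 match would fall in 34. The sites are printed below in the 5′ to 3′ direction of the gene with 15 bases on each side, and the capitals mark the fixed letters of the element on either strand.
Hspa5 (ERSE, chr2:34772010-34772058, plus strand): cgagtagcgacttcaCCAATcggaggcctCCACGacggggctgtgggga
Calr (ERSE, chr8:84847060-84847108, minus strand): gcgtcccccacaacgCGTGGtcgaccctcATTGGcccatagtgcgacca
Herpud1 (ERSE-II, chr8:94386362-94386402, plus strand): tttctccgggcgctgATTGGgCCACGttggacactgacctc
Derl3 (ERSE, chr10:75893227-75893275, plus strand): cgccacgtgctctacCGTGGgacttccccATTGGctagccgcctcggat
Hsp90b1 (ERSE, chr10:86705623-86705671, minus strand): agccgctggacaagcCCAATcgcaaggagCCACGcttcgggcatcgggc
Hsp90b1 (ERSE, chr10:86705518-86705566, minus strand): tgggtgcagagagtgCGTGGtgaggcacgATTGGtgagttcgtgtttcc
Canx (ERSE, chr11:50325785-50325833, minus strand): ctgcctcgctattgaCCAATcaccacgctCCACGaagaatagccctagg
Pdia6 (ERSE, chr12:17266476-17266524, plus strand): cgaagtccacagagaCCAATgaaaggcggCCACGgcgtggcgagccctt
Dnajc3 (ERSE, chr14:118937812-118937860, plus strand): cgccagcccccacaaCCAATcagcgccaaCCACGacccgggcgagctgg
Creld2 (ERSE, chr15:88819505-88819553, plus strand): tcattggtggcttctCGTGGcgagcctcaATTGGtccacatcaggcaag
Syvn1 (ERSE, chr19:6046517-6046565, plus strand): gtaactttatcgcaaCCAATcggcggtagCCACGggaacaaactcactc
Hsp90b1 held 2 matches, and Dnajb11 held an ERSE-II match after its start, which is not shown. The site of Hspa5, the gene of the ER chaperone BiP, began 65 bases before the start. Its 250 upstream bases (chr2:34771840-34772089, plus strand) are given whole, with the same letters in capitals, as the longest context shown.
Hspa5 upstream: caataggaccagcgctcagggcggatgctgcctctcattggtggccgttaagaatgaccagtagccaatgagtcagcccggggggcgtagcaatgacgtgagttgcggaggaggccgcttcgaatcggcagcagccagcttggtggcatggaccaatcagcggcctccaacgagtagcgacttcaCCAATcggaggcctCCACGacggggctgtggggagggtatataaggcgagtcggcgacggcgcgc
A match describes letters only and was not taken as a bound site.

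SecPDG cells held the highest levels of nearly the whole set. The mean was highest in SecPDG for 42 of the 44 genes, whereas SecPDG was the highest cell type for 19.9% of the 13188 genes. The exceptions were Ddit3, highest in Ent, and Derl3, highest in EEC. The lowest mean lay in EEC for 33 of the 44 genes, against 36.2% of all genes, in Stem for 6, in Ent for 3 and in SecPDG for 2. Summed over the 44 genes, normalized counts were 124006 ± 9637 in Stem (SD, n = 3), 162432 ± 20880.0 in AbsPro (n = 3), 371049.5 ± 66847 in SecPDG (n = 4), 233968 ± 63434 in tuft cells (n = 5), 95448 ± 43386 in Ent (n = 5) and 58296 ± 33885 in EEC (n = 2). The genes took 0.839% of all counts on genes in Stem and 2.11% in SecPDG. The 4 SecPDG sums, from 304842 to 462409, lay above every Stem, AbsPro, Ent and EEC sum, whereas they overlapped those of tuft cells, which reached 344831 in tuft 5.

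**Figure D1:**
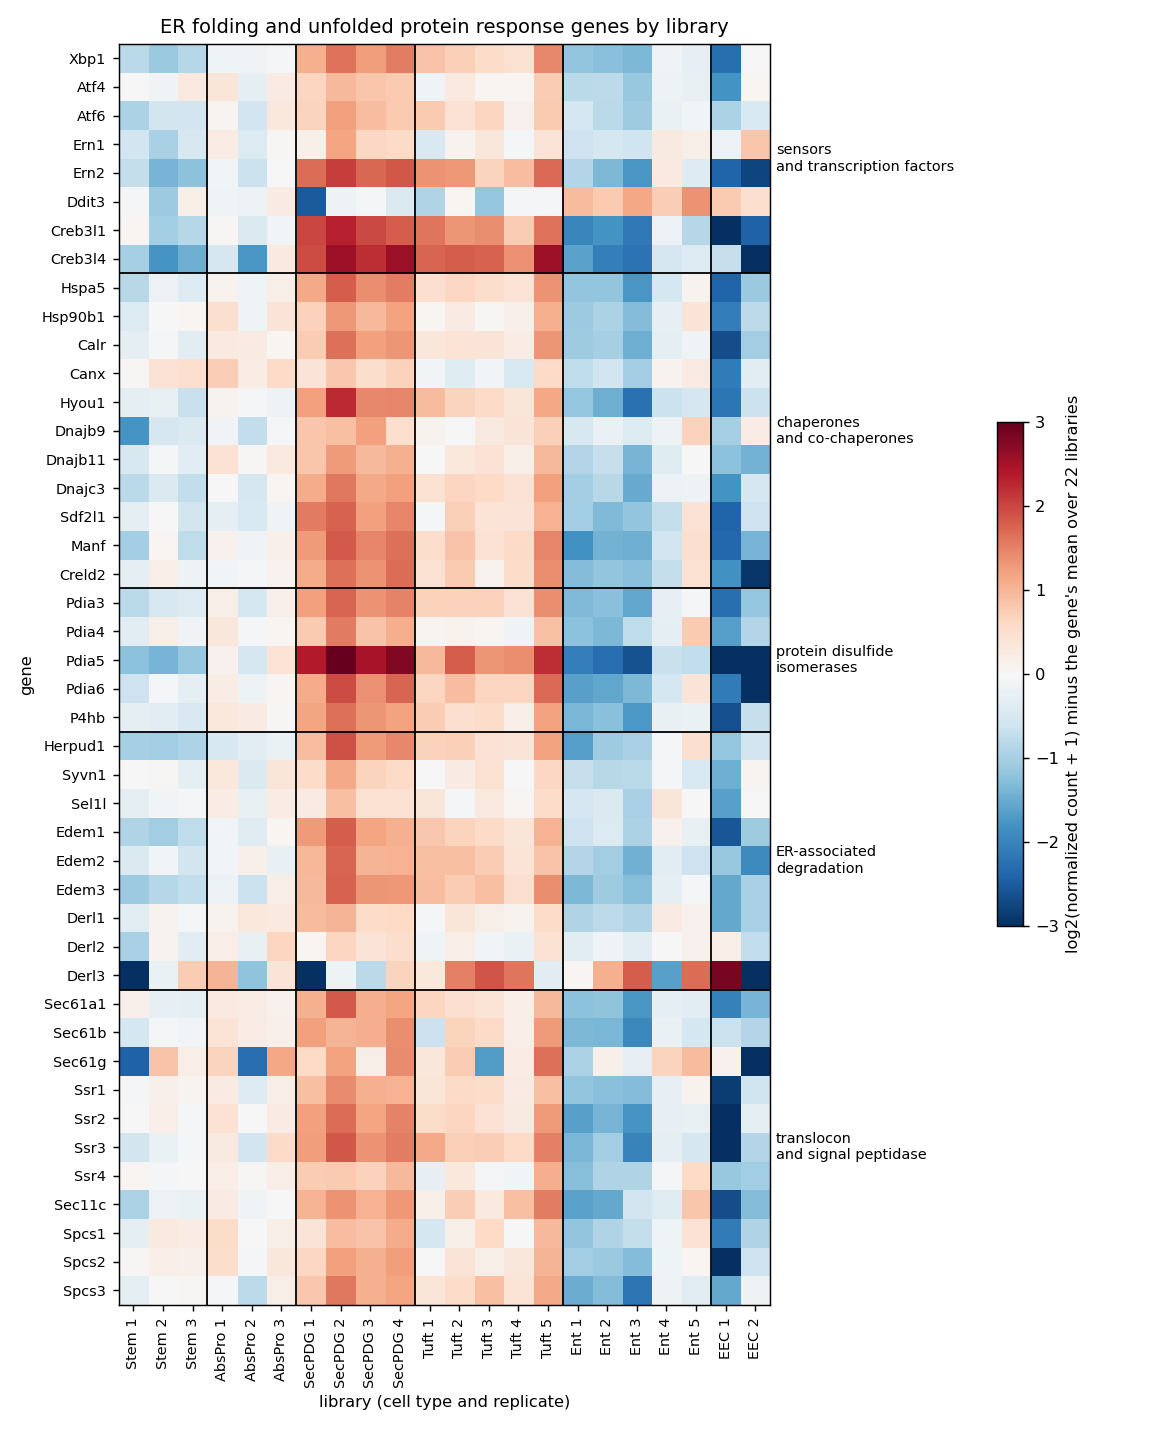
Heat map of the 44 genes (rows, grouped by role) in the 22 libraries (columns, grouped by cell type). Colour gives the log2 of the normalized count (with 1 added) minus the gene's mean over the 22 libraries and is saturated at 3 in either direction. All SecPDG columns are above the mean in 42 rows, all but Ddit3 and Derl3, and EEC 1 is the lowest library in 26 rows.

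Against Stem, 25 of the 44 genes were called in SecPDG, all of them higher, where 8.58% of the 13188 genes were called and 5.84% were called higher. In tuft cells 13 were called, all higher (20.9% of all genes called, 13.5% higher). In Ent 1 was called higher, Ddit3 (38.3% of all genes called, 18.6% higher). In EEC 6 were called, all lower (34.4% called, 15.8% lower). In AbsPro edgeR called 0 of 44 (1.02% called), with 6 genes at an unadjusted p under 0.05 and 2 calls by DESeq2's Wald test. The median log2 fold change of the 44 genes was 1.51 in SecPDG, 0.81 in tuft cells, 0.39 in AbsPro, -0.32 in Ent and -1.06 in EEC, against -0.06, -0.09, 0.04, -0.30 and -0.30 over all genes. An F test over all 6 cell types called 39 of 44 (58% of all genes), and the 5 left out were Canx, Sel1l, Derl2, Derl3 and Sec61g. Every SecPDG library exceeded every Stem library in 39 of 44 genes, which held for 14.6% of all genes, and every tuft library did so in 28 (17.1%). In AbsPro this was so for 15 of 44 genes (14.2%), a share above that of all genes although no call was made. Leaving out 1 library moved the SecPDG count from 14, without Stem 1, to 35, without EEC 1, and the tuft count from 8, without Stem 1, to 21, without EEC 1.

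Among the sensors and transcription factors, 6 of 8 rose in SecPDG (Xbp1, Atf6, Ern1, Ern2, Creb3l1 and Creb3l4) and 5 of 8 in tuft cells (the same without Ern1), while Atf4 and Ddit3 passed in neither. Creb3l1 and Creb3l4, both ER-anchored transcription factors released by cleavage, and Ern2, the Ire1 of mucosal epithelia, had the largest changes. Xbp1 (chr11:5520659-5525893, mm10), the transcription factor switched on by Ire1 splicing, held 1269, 1026 and 1237 in the Stem libraries, 2042, 2097 and 2175 in AbsPro and 4656, 6922, 5307 and 6497 in SecPDG. Its counts were 4053, 3651, 3287, 3082 and 6107 in the tuft libraries, 979, 941, 877, 2089.5 and 1879 in Ent and 465 and 2225 in EEC. The 3 AbsPro libraries lay above the 3 Stem libraries, SecPDG lay above both, and tuft cells overlapped SecPDG through tuft 5, the other 4 tuft libraries staying below it. The Xbp1 mean was 1177 ± 132 (SD, n = 3) in Stem and 5845 ± 1047 (SD, n = 4) in SecPDG. The log2 fold change against Stem was 2.31 (SE 0.38, adjusted p = 9.59e-06, higher in 4 of 4 libraries) in SecPDG and 1.78 (SE 0.37, adjusted p = 0.00022, higher in 5 of 5 libraries) in tuft cells. Against AbsPro, SecPDG was higher by 1.47 (SE 0.37, adjusted p = 0.0053, higher in 4 of 4 libraries), a call lost without any 1 of AbsPro 1, 2 and 3 and SecPDG 4 (adjusted p up to 0.0348).

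Ern2 (chr7:122169893-122186207), the Ire1 paralog found in gut and airway epithelium, had counts of 1307, 814 and 905 in the Stem libraries, 2027, 1352 and 2156 in AbsPro and 6857, 8995, 6986 and 7726 in SecPDG. There were 5416, 5247, 3385, 4026 and 6864 in the tuft libraries, 1159, 839, 633, 2603 and 1623 in Ent and 401 and 315 in EEC. SecPDG was far above Stem and AbsPro without overlap, and it overlapped the tuft libraries through SecPDG 1 and tuft 5. Both EEC libraries lay below all Stem libraries. Ern2 was higher in SecPDG than in Stem by a log2 fold change of 2.92 (SE 0.39, adjusted p = 8.20e-08, higher in 4 of 4 libraries), in tuft cells by 2.31 (SE 0.37, adjusted p = 3.63e-06, higher in 5 of 5 libraries) and in SecPDG over AbsPro by 2.05 (SE 0.37, adjusted p = 7.15e-05, higher in 4 of 4 libraries). In EEC the difference was -1.51 (SE 0.53, adjusted p = 0.0158), which passed without any 1 of Stem 2 and 3, AbsPro 1 and 3, SecPDG 2, tuft 4 and Ent 1 and 4 (adjusted p up to 0.00952).

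Ern1 (chr11:106394650-106487852), the Ire1 form of most tissues, changed less than Ern2. Its counts were 731, 555 and 786 in the Stem libraries, 1267, 822 and 1115 in AbsPro and 1208, 2497, 1679 and 1625 in SecPDG. The other gates held 802, 1177, 1393, 1067 and 1430.5 in the tuft libraries, 716, 756, 723, 1316 and 1229.6 in Ent and 971 and 1943 in EEC. All SecPDG, tuft and EEC libraries lay above Stem, while AbsPro and SecPDG overlapped. SecPDG exceeded Stem by 1.34 (SE 0.33, adjusted p = 0.00333, higher in 4 of 4 libraries), a call lost without any 1 of Stem 1 and SecPDG 2 (adjusted p up to 0.0178). Tuft cells differed from Stem by 0.77 (SE 0.31, adjusted p = 0.0519), which passed without EEC 1 (adjusted p = 0.00993), and EEC by 1.10 (SE 0.38, adjusted p = 0.0156).

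Atf6 (chr1:170704674-170867771), the sensor that becomes a transcription factor once cut in the Golgi, had 766, 1015 and 994 in the Stem libraries, 1573, 996 and 1849 in AbsPro and 2368, 3471, 2835 and 2584 in SecPDG. It had 2555, 2014, 2310.4, 1631 and 2548 in the tuft libraries, 1033, 848, 709, 1301 and 1404 in Ent and 770.1 and 1087 in EEC. SecPDG and tuft libraries were all above Stem, whereas AbsPro, Ent and EEC overlapped Stem. The log2 fold change was 1.60 (SE 0.32, adjusted p = 0.000227, higher in 4 of 4 libraries) in SecPDG and 1.26 (SE 0.31, adjusted p = 0.00173, higher in 5 of 5 libraries) in tuft cells, the latter lost without Stem 1 (adjusted p = 0.0187). SecPDG against AbsPro gave 0.93 (SE 0.31, adjusted p = 0.0586), which passed without EEC 1 (adjusted p = 0.00247).

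Creb3l1 (chr2:91982328-92024502), also called Oasis, had the highest level of the sensors in SecPDG per kilobase of exon, at 10364 normalized counts per kilobase. Counts were 6826, 3212 and 3622 in the Stem libraries, 6672, 4860.1 and 6197 in AbsPro and 26082, 33024, 25681 and 23125 in SecPDG. They were 19829, 16335, 17013, 11085 and 20305 in the tuft libraries, 1679, 1873, 1474, 5732 and 3614 in Ent and 687 and 1215 in EEC. SecPDG lay above every other library of the study, tuft cells came next without overlapping SecPDG or Stem, and EEC lay below Stem. The mean was 4553 ± 1979 (SD, n = 3) in Stem and 26978 ± 4238 (SD, n = 4) in SecPDG. SecPDG exceeded Stem by 2.57 (SE 0.46, adjusted p = 4.51e-05, higher in 4 of 4 libraries) and tuft cells by 1.89 (SE 0.44, adjusted p = 0.000982, higher in 5 of 5 libraries). EEC was lower by -2.24 (SE 0.58, adjusted p = 0.0015, lower in 2 of 2 libraries), a call lost without Stem 1 (adjusted p = 0.0151), and SecPDG over AbsPro was 2.19 (SE 0.45, adjusted p = 0.000504), lost without AbsPro 2 (adjusted p = 0.0134). Ent against Stem was -0.66 (SE 0.41, adjusted p = 0.149) and passed without EEC 1 (adjusted p = 0.00646).

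Creb3l4 (chr3:90237500-90243512), a relative of Creb3l1, held 321, 188 and 234 in the Stem libraries, 458, 192 and 792 in AbsPro and 2487, 3824, 2988 and 3807 in SecPDG. It held 2157, 2270.3, 2192, 1669.9 and 3795 in the tuft libraries, 212, 156, 139, 454 and 487 in Ent and 399.5 and 20.6 in EEC. SecPDG and tuft libraries were all well above Stem and AbsPro and overlapped each other, and the 2 EEC libraries disagreed, with EEC 1 above and EEC 2 below Stem. The fold change from Stem to SecPDG was the largest of the sensors, 3.73 (SE 0.44, adjusted p = 3.13e-09, higher in 4 of 4 libraries) on the log2 scale or 13.3-fold, and that to tuft cells was 3.30 (SE 0.43, adjusted p = 2.45e-08, higher in 5 of 5 libraries). SecPDG exceeded AbsPro by 2.78 (SE 0.42, adjusted p = 1.69e-06, higher in 4 of 4 libraries). EEC differed from Stem by -0.41 (SE 0.65, adjusted p = 0.636).

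Atf4 (chr15:80255184-80257541), the factor whose translation rises under Perk, was called in none of the 7 comparisons between 2 cell types, although the F test over the 6 cell types called it. Counts were 2436, 2250.1 and 2982 in the Stem libraries, 3092, 1991 and 2873 in AbsPro and 3782, 4733, 4304 and 4144 in SecPDG. They were 2201, 2949, 2523, 2521 and 4127 in the tuft libraries, 1369.8, 1411, 1097, 2168 and 2085 in Ent and 694 and 2512 in EEC for the remaining gates. All SecPDG libraries exceeded all Stem and AbsPro libraries and all Ent libraries lay below Stem. The log2 fold change was 0.73 (SE 0.34, adjusted p = 0.226) in SecPDG and -0.65 (SE 0.32, adjusted p = 0.0708) in Ent, the latter passing as lower without any 1 of tuft 4 and EEC 1 (adjusted p up to 0.00962). In EEC it was -0.64 (SE 0.42, adjusted p = 0.198).

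Ddit3 (chr10:127290774-127296288), which encodes the death-associated factor Chop, followed another order and was low throughout. Its counts were 165, 78.7 and 189 in the Stem libraries, 153, 149 and 199.8 in AbsPro and 28.4, 152, 165 and 125 in SecPDG. For the other gates they were 90.3, 175, 74.6, 161 and 162 in the tuft libraries, 325, 291, 375, 282 and 428 in Ent and 293 and 238 in EEC. The Stem, AbsPro, SecPDG and tuft libraries overlapped, all at or below 199.8, and the 5 Ent and 2 EEC libraries lay above them. Ent exceeded Stem by 1.24 (SE 0.38, adjusted p = 0.00474, higher in 5 of 5 libraries), a call lost without any 1 of Stem 2 and 3, AbsPro 1, tuft 4 and Ent 1, 3 and 5 (adjusted p up to 0.0791). EEC differed from Stem by 0.87 (SE 0.50, adjusted p = 0.144), and SecPDG by -0.29 (SE 0.44, adjusted p = 0.839).

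**Figure D2:**
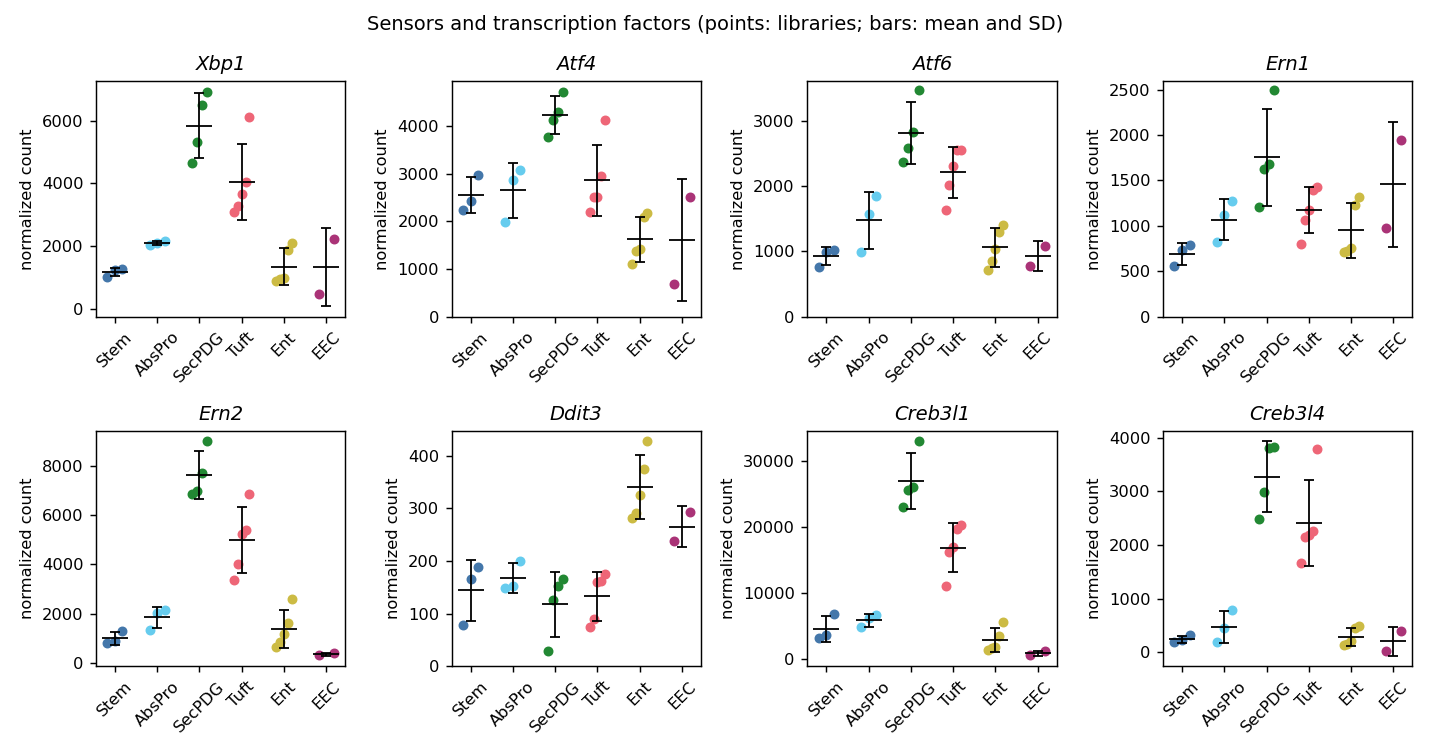
Normalized counts of the 8 sensors and transcription factors by cell type, 1 panel per gene with a linear axis from 0. Points are libraries, and the bar and whiskers give the mean and SD. The SecPDG mean is highest in 7 panels, the tuft mean is second in 6 of these and the EEC mean in that of Ern1, and Ddit3 is the panel in which Ent and EEC lie above the other 4 cell types.

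Of the 11 chaperones and co-chaperones, 8 rose in SecPDG against Stem (Hspa5, Hyou1, Dnajb9, Dnajb11, Dnajc3, Sdf2l1, Manf and Creld2) and 2 in tuft cells (Dnajc3 and Manf). Over the 11 genes the log2 fold change had a median of 1.67 in SecPDG and 0.81 in tuft cells. The abundant chaperones Hsp90b1, Calr and Canx did not pass. Their counts together with the others summed to 58965 ± 8151 in Stem (SD, n = 3) and 148302 ± 29051 in SecPDG (n = 4).

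Hspa5 (chr2:34771970-34777547) encodes BiP, the ER's Hsp70 chaperone, whose ERSE is printed above. It held 5210.1, 8265 and 7179 in the Stem libraries, 9979.8, 8455 and 10440.0 in AbsPro and 20515, 32898, 24669.8 and 26946 in SecPDG. It held 13284, 14314, 13444, 12289 and 23672 in the tuft libraries, 4085, 4127, 2768, 6489 and 9957 in Ent and 1763 and 4339 in EEC. SecPDG lay above every Stem and AbsPro library, tuft 5 alone among tuft libraries reached the SecPDG range, and both EEC libraries fell below Stem. The mean was 6885 ± 1549 (SD, n = 3) in Stem and 26257 ± 5166 (SD, n = 4) in SecPDG. The SecPDG level exceeded that of Stem by 1.93 (SE 0.45, adjusted p = 0.00194, higher in 4 of 4 libraries), a call lost without Stem 1 (adjusted p = 0.0377). Tuft cells differed from Stem by 1.16 (SE 0.42, adjusted p = 0.0303), passing without any 1 of EEC 1 and 2 (adjusted p up to 0.00559). SecPDG differed from AbsPro by 1.45 (SE 0.44, adjusted p = 0.0321), passing without any 1 of Stem 2, tuft 4, Ent 1 and EEC 1 and 2 (adjusted p up to 0.00953), and EEC from Stem by -1.16 (SE 0.54, adjusted p = 0.0667).

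Manf (chr9:106838312-106891979), a small ER-resident and secreted survival factor, had 689, 1458 and 830.1 in the Stem libraries, 1543, 1278 and 1564 in AbsPro and 3385, 5029, 3891 and 4409 in SecPDG. It had 2026, 2539, 1892, 2092 and 3891 in the tuft libraries, 401, 521, 512, 948 and 1961 in Ent and 275 and 535 in EEC. SecPDG and tuft libraries were all above Stem, tuft 5 was the only tuft library within the SecPDG range, and Ent 5 exceeded all Stem libraries while Ent 1, 2 and 3 lay below them. The log2 fold change was 2.07 (SE 0.38, adjusted p = 6.24e-05, higher in 4 of 4 libraries) in SecPDG and 1.33 (SE 0.36, adjusted p = 0.00468, higher in 5 of 5 libraries) in tuft cells, the latter lost without any 1 of Stem 1 and 3 and tuft 5 (adjusted p up to 0.0445). SecPDG exceeded AbsPro by 1.51 (SE 0.37, adjusted p = 0.00426, higher in 4 of 4 libraries), lost without any 1 of AbsPro 1, 2 and 3 and SecPDG 4 (adjusted p up to 0.0434).

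Creld2 (chr15:88819646-88826683), an ER-resident protein with disulfide isomerase activity, had 565, 789 and 617 in the Stem libraries, 646, 659 and 736 in AbsPro and 1487, 2159.6, 1743 and 2186 in SecPDG. It had 945, 1179, 746, 1014 and 1800.2 in the tuft libraries, 279.5, 304, 287, 419 and 940.2 in Ent and 193 and 91.0 in EEC. All SecPDG libraries lay above Stem and AbsPro, tuft cells overlapped Stem, and both EEC libraries were below Stem. SecPDG exceeded Stem by 1.52 (SE 0.33, adjusted p = 0.000969, higher in 4 of 4 libraries), a call lost without Stem 1 (adjusted p = 0.0154), and AbsPro by 1.48 (SE 0.34, adjusted p = 0.00186, higher in 4 of 4 libraries), lost without AbsPro 2 (adjusted p = 0.0167). EEC was lower than Stem by -2.29 (SE 0.55, adjusted p = 0.000638, lower in 2 of 2 libraries), a call that rests on 2 EEC libraries. Ent differed by -0.58 (SE 0.33, adjusted p = 0.127) and passed as lower without Ent 5 (adjusted p = 0.00916).

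Among the rest, Hyou1, the exchange factor of BiP, rose from 2634 ± 435 (SD, n = 3) in Stem to 10722 ± 3679 (SD, n = 4) in SecPDG, a log2 fold change of 2.02 (SE 0.39, adjusted p = 0.00013). Sdf2l1, which works with BiP and its J proteins, rose from 409 ± 75.2 (n = 3) to 1397 ± 215 (SD, n = 4), by 1.77 (SE 0.34, adjusted p = 0.000119). These 2 and Dnajc3, a J protein, kept their calls in SecPDG against Stem when any 1 library was left out, whereas those of Dnajb9 and Dnajb11, which are also J proteins, were lost without Stem 1 (adjusted p = 0.0158) and without Stem 1 (adjusted p = 0.0382). Hsp90b1, the ER's Hsp90, differed in SecPDG by 1.16 (SE 0.49, adjusted p = 0.161), passing without EEC 1 (adjusted p = 0.00326). The lectin chaperone calreticulin (Calr) differed by 1.49 (SE 0.48, adjusted p = 0.0435), passing without any 1 of Ent 1 and EEC 1 and 2 (adjusted p up to 0.0096). For both, all SecPDG libraries lay above all Stem libraries. Canx, the membrane-bound lectin chaperone, differed by 0.27 (SE 0.41, adjusted p = 0.842), and its SecPDG, Stem and AbsPro libraries overlapped. The Canx promoter holds an ERSE, as those of Hspa5, Calr and Hsp90b1 do.

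Of the 5 protein disulfide isomerases, which form and rearrange disulfide bonds, Pdia3, Pdia5 and Pdia6 rose in SecPDG against Stem, and Pdia5 and Pdia6 rose in tuft cells. In SecPDG the median log2 fold change was 1.89. Summed counts were 28003 ± 2236 in Stem (SD, n = 3) and 100673 ± 18574 in SecPDG (n = 4). Pdia5 (chr16:35397312-35490873) had 609.7, 537 and 648 in the Stem libraries, 1561, 1001 and 1881 in AbsPro and 7453, 12722, 7934 and 9712 in SecPDG. It had 2777, 5021, 3573, 3740.1 and 6627 in the tuft libraries, 342, 291, 229.9, 893 and 850.2 in Ent and 128 and 179.6 in EEC. The 3 AbsPro libraries exceeded Stem, SecPDG exceeded AbsPro and tuft cells, tuft cells lay between AbsPro and SecPDG, and EEC lay below Stem, with no overlap between any of these neighbours. The mean was 598 ± 56.1 (SD, n = 3) in Stem and 9455 ± 2385 (SD, n = 4) in SecPDG. This was the largest change of the set, 3.98 (SE 0.42, adjusted p = 1.19e-10, higher in 4 of 4 libraries) or 15.8-fold, and tuft cells exceeded Stem by 2.87 (SE 0.40, adjusted p = 1.07e-07, higher in 5 of 5 libraries). SecPDG exceeded AbsPro by 2.68 (SE 0.39, adjusted p = 9.42e-07, higher in 4 of 4 libraries). EEC was lower than Stem by -1.92 (SE 0.62, adjusted p = 0.00894, lower in 2 of 2 libraries), a call lost without any 1 of Stem 1, AbsPro 2, SecPDG 3 and 4, tuft 2 and 3 and Ent 2 (adjusted p up to 0.0176). AbsPro differed from Stem by 1.31 (SE 0.41, adjusted p = 0.11), passing without EEC 1 (adjusted p = 0.00778), and tuft cells from SecPDG by -1.12 (SE 0.31, adjusted p = 0.0135), passing as lower without any 1 of Stem 2 and 3, AbsPro 1 and 3, tuft 5, Ent 1 and 4 and EEC 1 and 2 (adjusted p up to 0.00956).

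Pdia6 (chr12:17266545-17284770), which also restrains Ire1, had 2272, 3384 and 2858 in the Stem libraries, 4079.6, 3135 and 3632 in AbsPro and 7614, 13614, 9132 and 11735 in SecPDG. It had 5456, 6712, 5522, 5528 and 11312 in the tuft libraries, 1143, 1192, 1369, 2453 and 4553 in Ent and 814 and 408 in EEC. SecPDG and tuft libraries all exceeded Stem, tuft 5 was the tuft library within the SecPDG range, and both EEC libraries lay below Stem. In SecPDG the gene rose over Stem by 1.89 (SE 0.40, adjusted p = 0.000699, higher in 4 of 4 libraries), lost without Stem 1 (adjusted p = 0.0166). Tuft cells exceeded Stem by 1.28 (SE 0.38, adjusted p = 0.00975, higher in 5 of 5 libraries), lost without any 1 of Stem 1, 2 and 3, AbsPro 2, SecPDG 1, 2, 3 and 4, tuft 1, 2, 3 and 5 and Ent 2 (adjusted p up to 0.0589). SecPDG exceeded AbsPro by 1.54 (SE 0.40, adjusted p = 0.00818, higher in 4 of 4 libraries), lost without any 1 of Stem 1, AbsPro 1, 2 and 3, SecPDG 2, 3 and 4 and tuft 1, 2 and 3 (adjusted p up to 0.0717). EEC was lower than Stem by -2.25 (SE 0.55, adjusted p = 0.000726, lower in 2 of 2 libraries), a call that rests on 2 EEC libraries.

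Pdia3 (chr2:121413775-121438687), the partner of calnexin and calreticulin, had 7021, 8780.1 and 9247 in the Stem libraries, 13860.2, 8519.8 and 13625 in AbsPro and 28521, 41068, 30964 and 34429.8 in SecPDG. It had 19878, 19832, 19623, 16634 and 31925 in the tuft libraries, 4844, 5103, 4137, 10234 and 11897 in Ent and 2538 and 5509 in EEC. SecPDG exceeded all Stem and AbsPro libraries, tuft cells exceeded Stem and overlapped SecPDG through tuft 5, and EEC lay below Stem. SecPDG exceeded Stem by 2.01 (SE 0.47, adjusted p = 0.00197, higher in 4 of 4 libraries), lost without Stem 1 (adjusted p = 0.0331). Tuft cells differed from Stem by 1.37 (SE 0.44, adjusted p = 0.0161), passing without any 1 of AbsPro 1 and 3, tuft 4, Ent 1 and EEC 1 and 2 (adjusted p up to 0.00736). SecPDG differed from AbsPro by 1.49 (SE 0.46, adjusted p = 0.0354), passing without any 1 of Stem 2 and 3, tuft 4, Ent 1 and EEC 1 and 2 (adjusted p up to 0.00949). P4hb, the classical isomerase, and Pdia4 did not pass in SecPDG, at 1.70 (SE 0.47, adjusted p = 0.013) and 1.18 (SE 0.41, adjusted p = 0.0669), although all their SecPDG libraries exceeded Stem; P4hb passed without any 1 of AbsPro 1 and 3, tuft 4, Ent 1, 3 and 4 and EEC 1 and 2 (adjusted p up to 0.00708) and Pdia4 without EEC 1 (adjusted p = 0.00362).

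In ER-associated degradation, 4 of 9 genes rose in SecPDG against Stem, Herpud1 and Edem1, Edem2 and Edem3, and the same 4 rose in tuft cells and in SecPDG over AbsPro. The median log2 fold change of the 9 was 0.87 in SecPDG. The 3 Edem proteins trim mannose from glycoproteins that fail to fold. Edem1 (chr6:108828641-108859356) had 935, 842 and 1032 in the Stem libraries, 1661, 1356 and 1803 in AbsPro and 4246, 6136, 3954 and 3674 in SecPDG. It had 3065, 2769, 2616, 2227 and 3582 in the tuft libraries, 1133, 1304, 907, 1902 and 1487 in Ent and 295 and 831 in EEC. AbsPro lay above Stem, tuft cells above AbsPro and SecPDG above tuft cells, with no overlap, and EEC lay below Stem. SecPDG exceeded Stem by 2.26 (SE 0.34, adjusted p = 1.27e-06, higher in 4 of 4 libraries) and tuft cells exceeded it by 1.61 (SE 0.32, adjusted p = 0.00017, higher in 5 of 5 libraries). SecPDG exceeded AbsPro by 1.49 (SE 0.33, adjusted p = 0.00117, higher in 4 of 4 libraries), lost without AbsPro 2 (adjusted p = 0.0202), and tuft cells differed from SecPDG by -0.65 (SE 0.27, adjusted p = 0.0937), passing as lower without EEC 1 (adjusted p = 0.00889).

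Edem2 (chr2:155701677-155729475) had 502, 638 and 466 in the Stem libraries, 642, 754 and 579 in AbsPro and 1369, 2281, 1382 and 1398 in SecPDG. It had 1263, 1263, 1151, 909.7 and 1224 in the tuft libraries, 369, 328, 252, 536 and 443 in Ent and 307 and 181 in EEC. SecPDG 2 was well above the other 3 SecPDG libraries, all of which lay above the tuft libraries, and tuft cells lay above Stem and AbsPro. The change was 1.58 (SE 0.31, adjusted p = 0.000153, higher in 4 of 4 libraries) in SecPDG and 1.12 (SE 0.30, adjusted p = 0.0037, higher in 5 of 5 libraries) in tuft cells, the latter lost without any 1 of Stem 1 and 3 (adjusted p up to 0.021). SecPDG exceeded AbsPro by 1.28 (SE 0.30, adjusted p = 0.00293, higher in 4 of 4 libraries), lost without any 1 of AbsPro 1 and 3 (adjusted p up to 0.0139), and EEC differed from Stem by -1.18 (SE 0.45, adjusted p = 0.0269), passing as lower without any 1 of Stem 3, AbsPro 1 and 3, tuft 4 and Ent 1 (adjusted p up to 0.00817).

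Edem3 (chr1:151755371-151822051) had 1200.2, 1424 and 1524 in the Stem libraries, 2284, 1637 and 2941 in AbsPro and 5038, 8675, 6373 and 6329 in SecPDG. It had 4889.5, 4380.3, 4785, 3611 and 6749 in the tuft libraries, 999.6, 1225, 1049, 2129 and 2448 in Ent and 889 and 1312 in EEC. Stem lay below AbsPro, AbsPro below tuft cells and SecPDG, and tuft 5 fell within the SecPDG range. The change was 2.25 (SE 0.36, adjusted p = 5.66e-06, higher in 4 of 4 libraries) in SecPDG, 1.82 (SE 0.35, adjusted p = 7.51e-05, higher in 5 of 5 libraries) in tuft cells and 1.53 (SE 0.35, adjusted p = 0.00198, higher in 4 of 4 libraries) for SecPDG over AbsPro, the last lost without AbsPro 2 (adjusted p = 0.0424). Herpud1, which recruits the ubiquitin ligase complex and whose ERSE-II is printed above, rose from 830.3 ± 38.7 (SD, n = 3) in Stem to 4425 ± 1268 (SD, n = 4) in SecPDG and 2700.2 ± 646 (SD, n = 5) in tuft cells. Its changes were 2.41 (SE 0.37, adjusted p = 1.90e-06, higher in 4 of 4 libraries) and 1.70 (SE 0.35, adjusted p = 0.000237, higher in 5 of 5 libraries). The ligase Syvn1 and its adaptor Sel1l did not pass, with 0.83 (SE 0.31, adjusted p = 0.0968) and 0.66 (SE 0.33, adjusted p = 0.284) in SecPDG, Syvn1 passing without EEC 1 (adjusted p = 0.00577). Neither did the derlins, which form the exit channel, with Derl1 at 0.87 (SE 0.30, adjusted p = 0.0662) and passing without EEC 1 (adjusted p = 0.00543), Derl2 at 0.74 (SE 0.33, adjusted p = 0.195) and Derl3 at -0.29 (SE 1.21, adjusted p = 0.962). Derl3 did not exceed 97.6 in any library and was at 0 in Stem 1, SecPDG 1 and EEC 2.

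Of the 11 translocon and signal peptidase genes, 4 rose in SecPDG against Stem (Sec61a1, Sec61b, Ssr3 and Sec11c) and 0 in tuft cells by edgeR, where 5 had an unadjusted p under 0.05 and DESeq2's Wald test called 5. The log2 fold change had a median of 1.25 in SecPDG and 0.63 in tuft cells. Sec61a1 and Sec61b are channel subunits, the Ssr genes encode the translocon-associated complex, and Sec11c is a catalytic subunit of signal peptidase. Sec11c had 1283, 2171 and 2160.2 in the Stem libraries, 2912, 2267 and 2496 in AbsPro and 5057, 6328, 5065 and 6036 in SecPDG. It had 2768, 4127, 3006, 4587 and 7131 in the tuft libraries, 811, 857, 1692, 1932 and 4399 in Ent and 387 and 1008 in EEC. SecPDG lay above Stem and AbsPro, and tuft cells, which lay above Stem, overlapped SecPDG because tuft 5 was the highest library of all. The gene rose in SecPDG over Stem by 1.58 (SE 0.40, adjusted p = 0.00513, higher in 4 of 4 libraries), lost without any 1 of Stem 1 and SecPDG 1 and 4 (adjusted p up to 0.0742). Tuft cells differed from Stem by 1.21 (SE 0.38, adjusted p = 0.0145), passing without any 1 of Ent 1 and 5 and EEC 1 and 2 (adjusted p up to 0.00701), and EEC by -1.38 (SE 0.52, adjusted p = 0.0255), passing as lower without any 1 of tuft 4 and Ent 1 (adjusted p up to 0.00978).

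Ssr3 (chr3:65379655-65392623) had 2134, 2736 and 3078 in the Stem libraries, 3790.0, 2119 and 4669 in AbsPro and 7518, 11364, 7995 and 9057 in SecPDG. It had 6929, 5158, 5248, 4764 and 8861 in the tuft libraries, 1216, 1526, 779, 2614 and 2213 in Ent and 169.9 and 1691 in EEC. SecPDG and tuft libraries were all above Stem, SecPDG was above AbsPro, and both EEC libraries were below Stem, EEC 1 the lowest library of all. Relative to Stem, SecPDG was higher by 1.76 (SE 0.41, adjusted p = 0.00223, higher in 4 of 4 libraries), lost without Stem 1 (adjusted p = 0.0344). Tuft cells differed from Stem by 1.23 (SE 0.39, adjusted p = 0.0155), passing without any 1 of AbsPro 3, tuft 4, Ent 1 and EEC 1 and 2 (adjusted p up to 0.00957), SecPDG from AbsPro by 1.35 (SE 0.41, adjusted p = 0.0306), passing without any 1 of tuft 4, Ent 1 and EEC 1 and 2 (adjusted p up to 0.00935), and EEC from Stem by -1.45 (SE 0.52, adjusted p = 0.0197), passing as lower without any 1 of AbsPro 1 and 3, tuft 4 and Ent 1 (adjusted p up to 0.00645).

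Ssr2 (chr3:88575876-88588419) had 1317, 1526 and 1267 in the Stem libraries, 1789, 1322 and 1556 in AbsPro and 3083, 4212, 3024 and 3716 in SecPDG. It had 1925, 2072, 1779.6, 1588 and 3199 in the tuft libraries, 427, 505, 389, 1120.0 and 1129 in Ent and 77.7 and 1102 in EEC. All SecPDG and tuft libraries exceeded Stem and all Ent and EEC libraries lay below it. SecPDG differed from Stem by 1.35 (SE 0.37, adjusted p = 0.0119), passing without any 1 of AbsPro 1 and 3, tuft 4 and 5, Ent 1, 3, 4 and 5 and EEC 1 and 2 (adjusted p up to 0.00989). Ent differed by -0.94 (SE 0.36, adjusted p = 0.0224), passing as lower without any 1 of Stem 3, AbsPro 1 and 3, tuft 4, Ent 4 and 5 and EEC 1 and 2 (adjusted p up to 0.00824), and EEC by -1.13 (SE 0.49, adjusted p = 0.0508). Sec61a1 rose from 3295 ± 574 (SD, n = 3) to 8988 ± 2506 (SD, n = 4) in SecPDG, by 1.45 (SE 0.36, adjusted p = 0.00416), a call lost without any 1 of Stem 1 and 3 and SecPDG 2 (adjusted p up to 0.0156), and it was lower in EEC by -1.55 (SE 0.46, adjusted p = 0.00492), lost without Stem 1 (adjusted p = 0.0201). Sec61b, the tail-anchored subunit, rose by 1.40 (SE 0.34, adjusted p = 0.00294) in SecPDG, lost without any 1 of Stem 1 and SecPDG 4 (adjusted p up to 0.0399). Sec61g, the smallest subunit, was low and uneven, between 6.07 and 264 over the libraries, and differed in SecPDG by 0.80 (SE 0.55, adjusted p = 0.524). The signal peptidase subunits Spcs1, Spcs2 and Spcs3 did not pass in SecPDG against Stem. Spcs3 passed in SecPDG over AbsPro, by 1.35 (SE 0.35, adjusted p = 0.0087), a call lost without any 1 of Stem 1, AbsPro 1 and 2, SecPDG 2, 3 and 4 and tuft 1, 2 and 3 (adjusted p up to 0.12), and Spcs2 was lower in EEC than in Stem by -1.43 (SE 0.47, adjusted p = 0.00999), a call lost without any 1 of Stem 1, AbsPro 2, SecPDG 3 and 4, tuft 1, 2 and 3 and Ent 2 (adjusted p up to 0.0151).

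**Figure D3:**
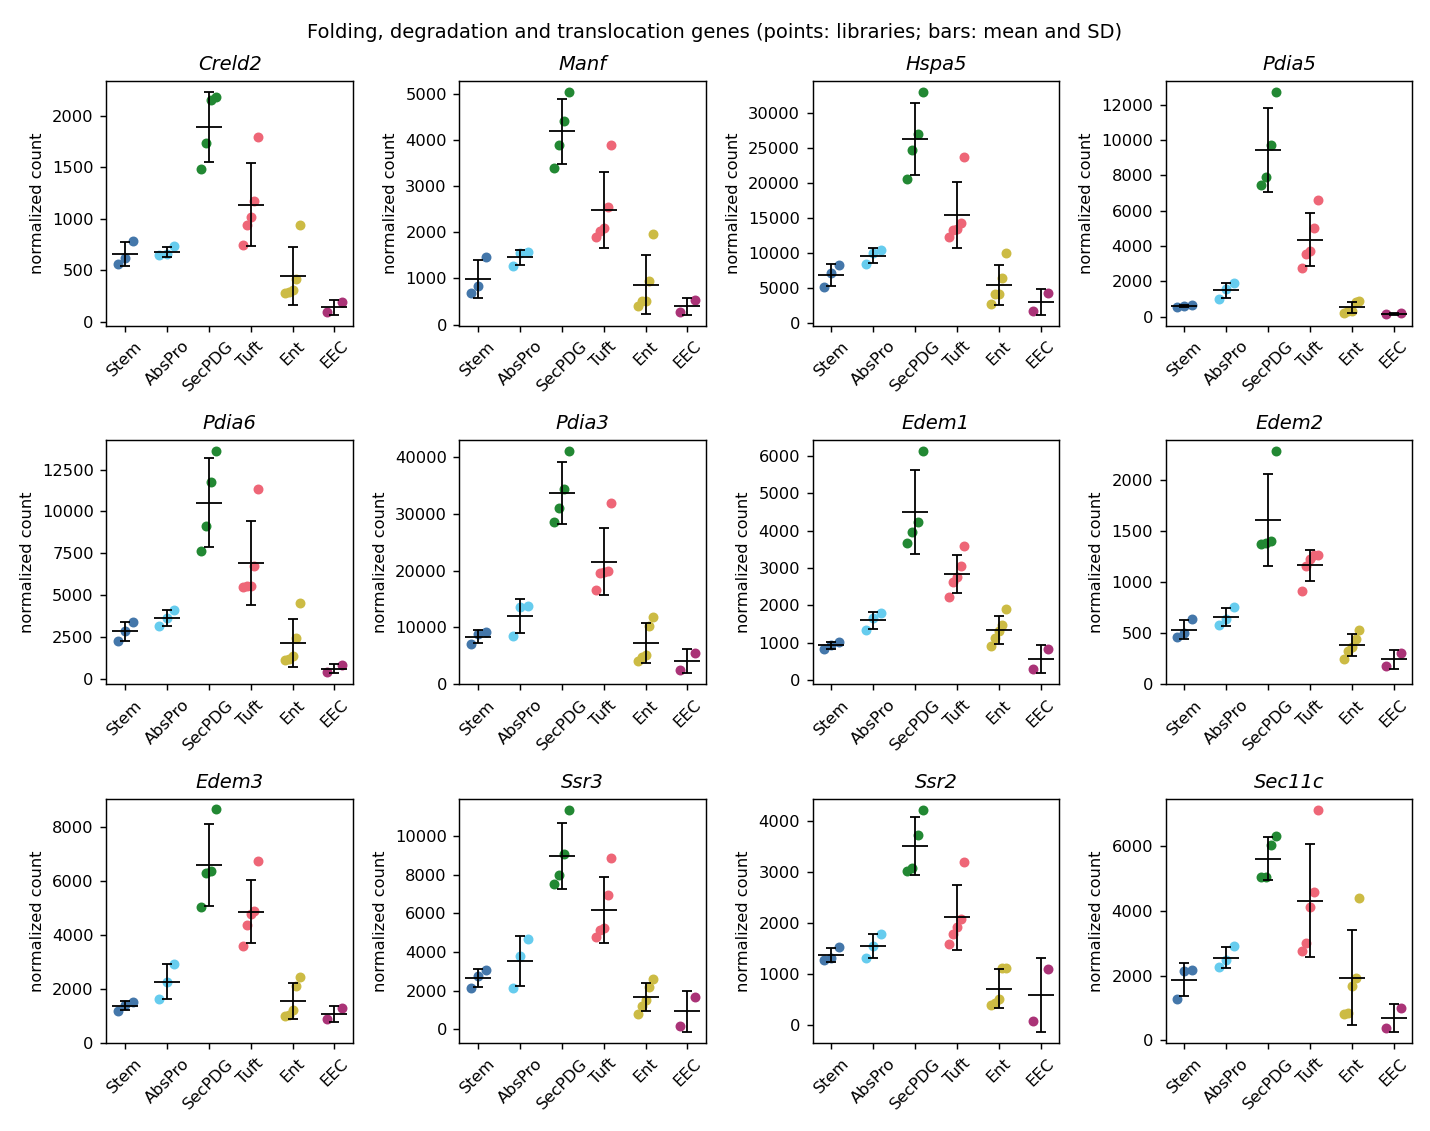
Normalized counts of the 12 folding, degradation and translocation genes described by library (Creld2, Manf, Hspa5, Pdia5, Pdia6, Pdia3, Edem1, Edem2, Edem3, Ssr3, Ssr2 and Sec11c), 1 panel per gene with a linear axis from 0. Points are libraries, and the bar and whiskers give the mean and SD. In each panel the SecPDG mean is highest and the tuft mean next, with tuft 5 as the highest tuft point in all but Edem2.

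Compared with AbsPro, the other progenitor gate, SecPDG had 16 of 44 genes higher and 0 lower (6.42% of all genes called, 3.45% higher), with a median log2 fold change of 1.14 against -0.04 over all genes. The 16 were Xbp1, Ern2, Creb3l1, Creb3l4, Hyou1, Dnajc3, Sdf2l1, Manf, Creld2, Pdia5, Pdia6, Herpud1, Edem1, Edem2, Edem3 and Spcs3. Every SecPDG library exceeded every AbsPro library in 37 of 44 genes (12.2% of all genes). Without AbsPro 2 the count was 6 and without EEC 1 it was 26. Sdf2l1 was one of the 5 called under every alternative run, at 1.80 (SE 0.34, adjusted p = 0.000149), with Ern2, Creb3l4, Pdia5 and Herpud1. Between AbsPro and Stem, where no call was made, the 44 log2 fold changes ranged from -0.10 to 1.31 and 41 were above 0. SecPDG and AbsPro files differ in name form, so a sequencing run, if the form marks one, cannot be told apart from cell type here either.

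Tuft cells and SecPDG were then compared within 1 file name form. EdgeR called 0 of the 44 genes (5.82% of all genes called, 0.607% lower), with 18 at an unadjusted p under 0.05 and 1 call by DESeq2's Wald test. The fitted change was below 0 for 42 genes, with a median of -0.59 against -0.12 over all genes. Every tuft library lay below every SecPDG library for 7 genes, Creb3l1, Hyou1, Sdf2l1, Pdia5, Edem1, Edem2 and Sec61a1 (5.54% of all genes), and 0 genes showed the opposite (7.3%). The count depended on the fit. With only the 2 cell types, 9 of the 44 genes were called lower in tuft cells, as were 480 of 11908 genes. With the Stem, AbsPro, SecPDG and tuft libraries alone, 24 of the 44 were called lower. In that fit their median was -0.63 against -0.23 over all genes. Without tuft 5 the count was 2. For the last 2 fits the share of all genes called lower is not given. Tuft 5 was the highest tuft library for 40 of the 44 genes. Against Stem, 11 genes were called in tuft cells without it, compared with 13 with it.

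Goblet cell markers, like the 44 genes, were highest in SecPDG and tuft cells. The list of 8 goblet and deep crypt secretory markers (Muc2, Clca1, Fcgbp, Tff3, Zg16, Spdef, Retnlb and Reg4) summed to 788466 to 3232451 normalized counts over the SecPDG libraries and 781586 to 1106563 over the tuft libraries. The sums were 19831 to 33133 for Stem, 87798 to 267019 for AbsPro, 235179 to 697919.7 for Ent and 35133 to 61029 for EEC. Against Stem 8 of 8 were called higher in SecPDG, 7 in tuft cells, 6 in Ent, 3 in AbsPro and 1 in EEC. Muc2, the gel-forming colon mucin, averaged 636064 ± 366691 (SD, n = 4) in SecPDG and 675090.2 ± 230435 (SD, n = 5) in tuft cells. The 8 markers summed on average to 1535672 for SecPDG against 990560 for tuft cells. Of the 8 markers edgeR called 2 lower and 0 higher in tuft cells against SecPDG, with a median log2 fold change of -1.22. The 6 tuft markers summed to 25979 to 69752 in tuft cells, 578 to 959 in SecPDG and 49.3 to 82.2 in Stem. In Ent the goblet sum was above that of AbsPro on average. Of the 44 genes, 1 was called higher than Stem in Ent under TMM. With DESeq2's size factors 9 were, as were 4583 of 14508 genes. The part of these markers in the ER gene levels was not tested.

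**Figure D4:**
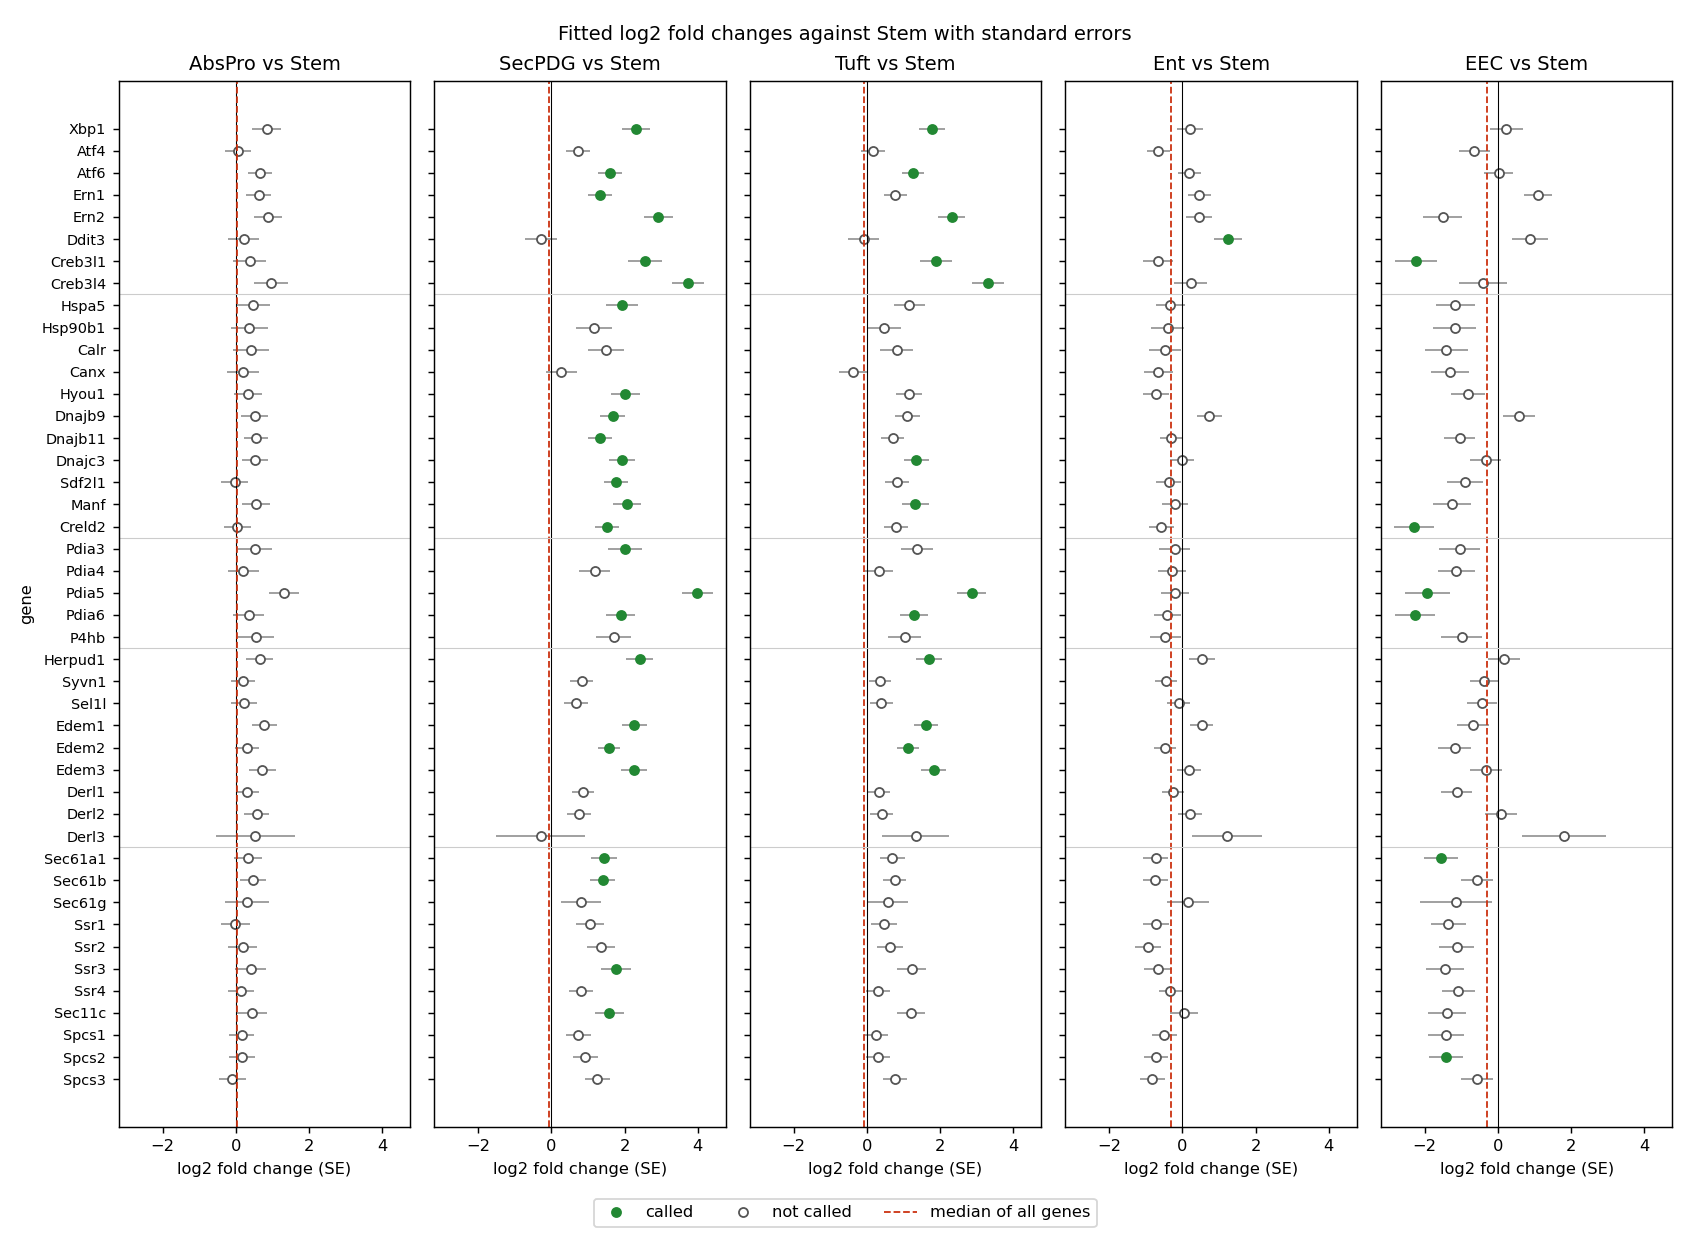
Fitted log2 fold changes against Stem of the 44 genes in AbsPro, SecPDG, tuft cells, Ent and EEC, with standard errors as whiskers, and filled points for called genes. SecPDG points lie right of 0 for 42 genes, tuft points lie right of 0 for 42 genes but nearer to it, and in EEC 36 of 44 lie left of 0.

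Under TMM, the set stood at or below its Stem level in Ent and EEC. In Ent 30 of 44 fitted changes were below 0, and the median of -0.32 lay close to the -0.30 of all genes. Every Ent library lay below every Stem library for Atf4 and Ssr2, where this held for 26% of all genes, and above it for Ddit3 (21.4%). Without EEC 1 the Ent call count became 12, of which 11 were lower. In EEC 36 of 44 were below 0 and the median of -1.06 lay below the -0.30 of all genes. The 6 lower calls were Creb3l1, Creld2, Pdia5, Pdia6, Sec61a1 and Spcs2, and both EEC libraries lay below every Stem library for 27 of the 44 genes (34.9% of all genes), among them all 5 isomerases. Ern1 and Ddit3 were above Stem in both EEC libraries (20.8%). Without Stem 1, 2 genes were called lower in EEC. Leaving out EEC 1 or EEC 2 would leave 1 library in the EEC group, so no EEC calls are given for those fits.

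Scaling bears on these 2 cell types and also on tuft cells. In tuft cells against Stem, DESeq2's size factors moved the median of all genes from -0.09 to 0.20. Calls of the 44 genes went from 13 to 28, and 2196 of 14508 genes were called higher. When size factors of DESeq2 replaced the TMM factors, the median of all genes moved from -0.30 to 0.35 in Ent and from -0.30 to 0.48 in EEC, and that of the 44 genes from -0.32 to 0.19 and from -1.06 to -0.44. Relative to all genes, the median of the 44 was -0.02 under TMM and -0.16 under size factors in Ent, and -0.76 and -0.92 in EEC. The share of counts on the 44 genes was 0.839% in Stem, 0.840% in Ent and 0.488% in EEC. The summed level of 1529 genes of olfactory, vomeronasal and bitter taste receptors and keratin-associated proteins was taken as a measure of background. It had a mean of 73.4 CPM (relative to each library's counts on genes) in Stem, 86.6 in SecPDG, 955 in tuft cells, 2599 in Ent and 3862 in EEC. Whether some of these genes are expressed in the sorted cells, such as taste receptors in tuft cells, was not tested. For 3 pairs of gene and cell type this background amounted to at least 20% of the gene's level, Derl3 in Ent (34.1%) and EEC (23.6%) and Sec61g in EEC (29.5%). The part of such background in the EEC and Ent values of other genes was not tested.

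**Figure D5:**
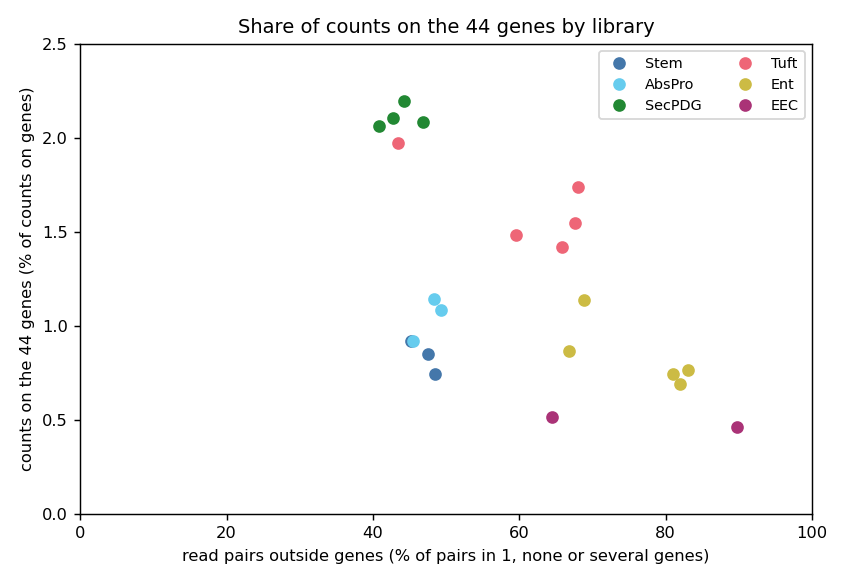
Share of the counts on genes that fell on the 44 genes (y axis, percent) against the share of read pairs outside genes (x axis, percent), 1 point per library, coloured by cell type. The 4 SecPDG libraries sit between 2.06% and 2.20%, tuft 5 at 1.97% near them, the other tuft libraries between 1.42% and 1.74%, and EEC lowest at 0.461% and 0.516%.

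Within a cell type, levels between genes were set per kilobase of exon. In SecPDG, Calr was highest at 13899.8 normalized counts per kilobase, followed by P4hb at 11694, Pdia3 at 10750.4, Creb3l1 at 10364, Hsp90b1 at 9442 and Hspa5 at 6209. In Stem the order began with Calr at 4951, Hsp90b1 at 4223 and P4hb at 3588, while Creb3l1 stood at 1749 and Pdia5 at 216. Creb3l1 thus stood between the isomerase Pdia3 and the chaperone Hsp90b1 in SecPDG. The other sensors in SecPDG were lower per kilobase, Ern2 at 2578, Creb3l4 at 1951, Xbp1 at 1799.7, Atf4 at 1799, Atf6 at 305, Ern1 at 214 and Ddit3 at 68.7. Derl3 was lowest of the 44 at 4.83.

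Set beside the promoter elements, 6 of the 11 genes with an ERSE or ERSE-II match were called higher in SecPDG against Stem, compared with 12 of the 23 genes with a promoter entry and no match and 7 of the 10 without an entry. Their median log2 fold changes were 1.49, 1.40 and 1.59. In tuft cells the calls numbered 3 of 11, 6 of 23 and 4 of 10, and in SecPDG over AbsPro 4 of 11, 7 of 23 and 5 of 10. Genes with a match included Herpud1 at the upper end and Canx and Derl3 at the lower end of the SecPDG changes.

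Other genes of the pathway, outside the 44, were followed in 7 lists. Genes of ER exit and retrieval, which ship folded cargo and return ER residents, had 7 of 10 called higher in SecPDG against Stem (5.84% of all genes) and 5 in tuft cells, with a median log2 fold change of 1.77 in SecPDG. Kdelr3, a receptor that returns escaped ER residents, averaged 54.2 ± 13.8 (SD, n = 3) in Stem and 1173 ± 177 (SD, n = 4) in SecPDG, a change of 4.43 (SE 0.44, adjusted p = 1.34e-11). Sec24d, a coat subunit of the vesicles that leave the ER, changed by 3.38 (SE 0.39, adjusted p = 1.56e-09), and Kdelr2 by 2.14 (SE 0.36, adjusted p = 1.06e-05). Redox enzymes, prolyl isomerases and glycan folding genes had 7 of 17 higher in SecPDG and 6 in tuft cells. Agr2, an isomerase required for mucin production, averaged 2367 ± 386 (SD, n = 3) in Stem, 69709 ± 16755 (SD, n = 4) in SecPDG and 50555 ± 29285 (SD, n = 5) in tuft cells, with changes of 4.88 (SE 0.69, adjusted p = 3.53e-07) and 4.42 (SE 0.67, adjusted p = 9.16e-07). Fkbp11, a prolyl isomerase, changed by 5.05 (SE 0.49, adjusted p = 9.13e-12) in SecPDG, and Txndc5, an isomerase with thioredoxin domains, by 3.05 (SE 0.46, adjusted p = 1.42e-06).

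The Perk arm and integrated stress response had 3 of 12 genes higher in SecPDG, Nupr1, Eif2ak3 and Asns, and their median was 0.48. Eif2ak3, which encodes Perk, averaged 689 ± 104 (SD, n = 3) in Stem and 3545 ± 1367 (SD, n = 4) in SecPDG, a change of 2.36 (SE 0.34, adjusted p = 6.47e-07). Asns, asparagine synthetase, changed by 1.71 (SE 0.32, adjusted p = 0.000106). Nupr1, a stress-induced nuclear protein, changed by 3.64 (SE 0.58, adjusted p = 4.48e-06) in SecPDG and was also called higher in tuft cells, Ent and EEC. Of the 6 further genes of the Atf6 and Creb3 family and their proteases, Creb3l2 was called in SecPDG, by 2.42 (SE 0.40, adjusted p = 1.15e-05), and also higher in tuft cells (1.94), Ent (1.61) and EEC (2.49). The oligosaccharyltransferase, which attaches glycans to entering chains, had 2 of 11 higher, Ostc by 2.06 (SE 0.35, adjusted p = 1.45e-05) and its catalytic subunit Stt3a by 1.51 (SE 0.37, adjusted p = 0.00396). Signal recognition and other translocon genes had 3 of 12 higher and 1 lower. Tram1, which sits beside the channel, changed by 1.87 (SE 0.38, adjusted p = 0.000263) and Srpr, the receptor of the signal recognition particle, by 1.67 (SE 0.34, adjusted p = 0.000306). Sec61a2, the paralog of the channel subunit Sec61a1, went the other way, from 299 ± 71.1 (SD, n = 3) in Stem to 101 ± 57.5 (SD, n = 4) in SecPDG, by -1.58 (SE 0.41, adjusted p = 0.00746). Further genes of ER-associated degradation had 2 of 13 higher, Vimp by 2.13 (SE 0.39, adjusted p = 5.97e-05) and Selk by 1.44 (SE 0.37, adjusted p = 0.00611), both selenoproteins. Over the 7 lists, 81 genes in all, 25 were called higher and 1 lower in SecPDG against Stem, 19 and 1 in tuft cells, 4 and 11 in Ent, 4 and 8 in EEC and 0 and 0 in AbsPro. Among all genes with a mean of at least 50 normalized counts, the share called lower against Stem was 2.74% in SecPDG, 0.159% in AbsPro, 7.31% in tuft cells, 19.8% in Ent and 15.8% in EEC. It was 2.97% for SecPDG against AbsPro, where the 7 lists had 15 genes higher and 1 lower, and 5.22% of all genes were called higher in tuft cells against SecPDG, where the lists had 1.

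Markers of the gates were summed in each cell type. The 4 stem markers summed to 8694 to 12258 in Stem and at most 5485 elsewhere, and the 5 enteroendocrine markers to 596910.0 to 1714716 in EEC. The 5 enterocyte markers summed to 46647 to 67756 in Ent, 62049 to 95516 in AbsPro and 20936 to 131376 in the 2 EEC libraries. The 6 tuft markers were also called higher than in Stem in EEC, 6 of 6 with sums of 4015 to 8644, in Ent, 5 of 6 with 379 to 970.4, and in SecPDG, 4 of 6. Plasma cells, whose ER is also extensive, were followed by 6 markers (Jchain, Mzb1, Tnfrsf17, Cd79a, Cd79b and Pou2af1). EdgeR called 0 of 6 in any comparison and their sums were 0 to 47.2 in SecPDG, 15.9 to 33.9 in AbsPro, 8.09 to 31.4 in Stem, 41.0 to 197 in tuft cells, 92.4 to 318 in Ent and 0 to 298 in EEC, with Mzb1 at 0 in all Stem libraries and Cd79a in both EEC libraries. A call needed a mean of at least 50 normalized counts per gene. The 6 plasma cell markers together averaged 17.4 in SecPDG, 18.5 in Stem, 128 in tuft cells and 195 in Ent. Most of them could thus not be called at any change, and the 0 calls do not show equal levels. Their median log2 fold change against Stem was -0.54 in SecPDG, 0.81 in AbsPro, 2.57 in EEC, 3.48 in tuft cells and 3.97 in Ent. Other immune markers (2 of 6 called higher in tuft cells, Ent and EEC) summed to 1264 to 3235 in tuft cells against 45.9 to 99.0 in Stem and 11.0 to 74.6 in SecPDG. Endothelial markers (3 of 4 higher in tuft cells, Ent and EEC) reached 780.2 to 1396 in EEC and stromal markers (2 of 5 higher in Ent and EEC) 325 to 893 in Ent, 47.3 to 1596 in EEC and 29.3 to 1215 in AbsPro.

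RNA processing of the 44 genes was followed in tables of skipped exons and of distal polyadenylation site use, each comparing Stem with 1 other cell type. Between 3 and 22 skipped exon events of the genes could be tested per table, and edgeR called 0 of them at an adjusted p below 0.05, as it called 0 of all events in the 5 tables (0% called), with 1 member event under an unadjusted p of 0.05 in SecPDG and in tuft cells and 0 in the other 3. Over all events, edgeR gave an unadjusted p under 0.05 for 4 of 3690 in AbsPro, 34 of 4461 in SecPDG and 64 of 4497 in tuft cells. In Ent it did so for 81 of 3762 and in EEC for 41 of 1696. These are fewer than chance alone would give, so this test could hardly call an event, and its 0 calls do not show unchanged splicing. A limma fit called 0 member events as well, with 2 under an unadjusted p of 0.05 in each of SecPDG, tuft cells and Ent and 0 in AbsPro and EEC. Of all events, limma called 363 of 3762 in Ent (9.65%), 8 of 1696 in EEC (0.472%), 1 of 4497 in tuft cells (0.0222%) and 0 in SecPDG and AbsPro (0%). The event under 0.05 by edgeR in SecPDG and tuft cells was an exon of Creb3l1 of 229 bases (chr2:92001845-92002073, mm10, minus strand). Its inclusion was 71.5%, 100% and 100% in the Stem libraries and 100% in all SecPDG and tuft libraries, with 558, 214 and 231 counts in Stem, so 1 Stem library made the difference. By edgeR the adjusted p for SecPDG was 0.781 and for tuft cells 0.734.

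Distal site shares of the genes were tested by limma for 36 transcripts in SecPDG, 35 in AbsPro and in tuft cells, 28 in Ent and 10 in EEC. At an adjusted p below 0.05, 0 were called, and of all transcripts 0.0237% were called in SecPDG, 0% in AbsPro, 0.0614% in tuft cells, 0.0408% in Ent and 0% in EEC. An unadjusted p under 0.05 was seen for 2 in SecPDG, 1 in each of AbsPro, tuft cells and Ent, and 0 in EEC. Herpud1 used the distal site at shares of 0.48, 0.54 and 0.48 in Stem and 0.66, 0.88, 0.84 and 0.75 in SecPDG, without overlap (limma adjusted p = 0.847). Xbp1 had 0.58, 0.68 and 0.69 in Stem and 0.65, 0.41, 0.33, 0.42 and 0.39 in tuft cells, where 1 tuft library overlapped Stem (limma adjusted p = 0.855). The Stem share depended on the table: the Stem mean of Xbp1 was 0.65 in the tuft table beside a tuft mean of 0.44, whereas it was 0.473 in the AbsPro table, 0.477 in the SecPDG table and 0.403 in the Ent table. Hspa5 had 0.86, 0.60 and 0.76 in Stem and 0.55 to 0.62 in Ent, overlapping through 1 Stem library (limma adjusted p = 0.533). Neither Herpud1 nor Xbp1 nor Hspa5 can be called from these tables. The shares carry no read depth, so no interval is given.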

How the data were processed

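RNA of 22 sorted colon crypt samples, made into libraries from 1 ng with a pico-input kit, was sequenced as paired reads. The authors trimmed the reads, aligned them to mm10 with STAR (2.5.2a) and, with HTSeq (0.6.1p1), deposited raw read counts per gene for 24421 genes without use of strand, so reads of overlapping or antisense transcripts cannot be told apart. The 5 entries per file that name no gene were left out of library totals; they held 41.9% to 89.9% of read pairs, multiply aligned pairs not counted. The authors' rMATS tables hold inclusion and skipping read counts of skipped exons, and their DaPars tables hold the share of the distal polyadenylation site per transcript as a fraction. Library columns of these tables are not named and were taken by cell type only. The P values, differences and group means in these tables, and the MAJIQ tables of group estimates, hold the authors' comparisons and were not used here.

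For the gene counts, edgeR (4.0.16, in R 4.3.3) was used. Genes were kept by filterByExpr, scaled by TMM and fitted once over 22 libraries with cell type as the only term, by the quasi-likelihood F test with Benjamini-Hochberg adjustment over 22781 genes. The SE was the log2 fold change divided by the square root of F. Exon events with at least 20 counts on average were tested with edgeR as an interaction of cell type and inclusion, and distal shares with limma (3.58.1) on the logit of the share with a pseudocount of 0.01. Genes were called at an adjusted p below 0.01 with a mean of at least 50 normalized counts, and events at 0.05. Alternatives were other scalings, no filter, DESeq2 (1.42.0), smaller fits, thinning to 4122122 counts and leaving out each library. The scripts were tested on simulated data. With changes planted between SecPDG and Stem, the gene test recovered 1.47% of changes of 1 on the log2 scale. It recovered 54.5% of changes of 2 and 83.3% of changes of 3. The 44 genes, their roles, the pathway lists and the marker lists were chosen with earlier results of these data known. Values in every library are given for the 8 sensors and, in each other role, the 3 genes with the widest range of mean level between cell types. Outside the 44 genes, up to 3 called genes per pathway list with the largest SecPDG change are named. Depth was 4122122 to 22462518 counts on genes per library. No 2 libraries were identical. Replicate numbers of the labels were tried as a block.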

Additional observations from a re-analysis of the deposited data

Results flagged for a closer look

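In 15 of 132 groups of 4 or 5 libraries, 1 per gene and cell type, the highest library stood apart from its group by Dixon's ratio, above 0.829 for 4 libraries or 0.71 for 5. Chance flags about 1 group in 20 where values are normally spread and groups independent. The groups here are genes of the same libraries on the linear scale, so the flags of 1 library are not separate findings. Tuft 5, the tuft library with the smallest share of read pairs outside genes (43.4%), was the library in 9 of them. Its normalized counts were 3795 for Creb3l4, 23672 for Hspa5, 37984 for Hsp90b1, 41332 for Calr, 15022 for Canx, 4938 for Dnajc3, 31925 for Pdia3, 11494 for Pdia4 and 11312 for Pdia6. Ent 5 stood apart in 3, with 841 for Dnajb9, 655 for Sdf2l1 and 940.2 for Creld2. SecPDG 2 stood apart in 3, with 2207 for Syvn1, 2281 for Edem2 and 12719 for Sec61a1. All 15 were the highest of their group. Without tuft 5, 11 of the 44 genes were called in tuft cells against Stem, compared with 13 with it.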

How the results depend on the processing

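Calls in SecPDG against Stem were higher under every alternative run, and 14 of the 25 were called in all 33 of them (Atf6, Creb3l1, Creb3l4, Dnajc3, Edem1, Edem2, Edem3, Ern2, Herpud1, Hyou1, Manf, Pdia5, Sdf2l1 and Xbp1); so were 8 of 13 in tuft cells and 5 of 16 in SecPDG over AbsPro, and 0 in Ent and EEC. With DESeq2's size factors in edgeR the calls numbered 1 in AbsPro, 28 in tuft cells, 9 in Ent (all higher), 27 in SecPDG over AbsPro and 1 in tuft cells against SecPDG. Of 14508 genes in that setting, 183 were called higher in AbsPro, 2196 in tuft cells, 4583 in Ent and 779 in SecPDG over AbsPro. In tuft cells against SecPDG, 71 were called lower. With library totals they were 1 in AbsPro, 25 in tuft cells, 6 in Ent and 13 in EEC (12 lower). Of 14435 genes, 159 were then called higher in AbsPro, 1746 in tuft cells and 4163 in Ent. In EEC 3453 were called higher and 1960 lower. Without a filter on low counts, 2 were called lower in tuft cells against SecPDG, as were 156 of 13106 genes. DESeq2's Wald test called 2 in AbsPro, 29 in tuft cells, 10 in Ent, 13 in EEC (9 lower), 31 in SecPDG over AbsPro and 1 in tuft cells against SecPDG. Of 13939 genes it called 339 higher in AbsPro, 2864 in tuft cells, 3862 in Ent, 4086 in EEC and 892 in SecPDG over AbsPro. It called 1622 lower in EEC and 160 lower in tuft cells against SecPDG. In a fit of only the 2 cell types compared the counts were 39 in SecPDG, 23 in tuft cells, 2 in AbsPro, 3 in Ent, 0 in EEC, 35 in SecPDG over AbsPro and 9 in tuft cells against SecPDG. The genes called higher were then 1438 of 11255 in SecPDG, 1883 of 12610 in tuft cells and 308 of 11455 in AbsPro. They were 4337 of 14480 in Ent, 958 of 14879 in EEC (510 lower) and 981 of 11171 in SecPDG over AbsPro. In tuft cells against SecPDG, 480 of 11908 were called lower. An adjusted p under 0.05 gave 21 in tuft cells, 3 in Ent, 19 in EEC and 2 in tuft cells against SecPDG. Of alternatives added after seeing the data, the earlier quasi-likelihood method of edgeR gave 0 in Ent and 9 in SecPDG over AbsPro, and a fit without Ent and EEC gave 38 in SecPDG, 28 in tuft cells, 2 in AbsPro, 33 in SecPDG over AbsPro and 24 lower in tuft cells against SecPDG. For the threshold of 0.05 and the added alternatives, no share of all genes is set beside the counts. Those counts are not read as a rise or fall of the set. The cause of these differences was not tested.

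The replicate numbers showed no common pairing of the libraries. Over 44 same-numbered pairs, deviations correlated between -0.393 and 0.488, with a median of 0.00138 against 0.0198 for other pairs. Yet 16 pairs exceeded 0.1, and 6 libraries correlated best with their own number. Whether some libraries shared a sort cannot be told from these values. With the replicate block, 5 genes were called lower in Ent, 10 in EEC and 5 in tuft cells against SecPDG, and 27 and 12 were called in SecPDG and tuft cells against Stem. Of 13188 genes, 3605 were then called lower in Ent, 2350 in EEC and 313 in tuft cells against SecPDG. Against Stem, 788 were called higher in SecPDG and 2017 in tuft cells. Among single genes, Dnajc3 in Ent turned from a fitted change near 0 to 0.50 (log2) under DESeq2's Wald test, the 1 case counted as a reversal. Of the other gene-level alternatives, 549 gained a call, 131 lost one and 9395 did neither. Changes that were not called could still switch sign. Over the alternatives, Ent against Stem ran from -0.77 to 0.22 for Pdia4 and from -0.73 to 0.28 for Manf. EEC against Stem ran from -1.34 to 0.76 for Xbp1.

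Leaving out 1 library at a time gave 14 to 35 calls in SecPDG (without Stem 1 and EEC 1), 0 to 1 in AbsPro (1 without EEC 1), 8 to 21 in tuft cells (Stem 1, EEC 1), 0 to 12 in Ent (0 without Stem 2, Ent 1 or Ent 3, and 12 without EEC 1), 2 to 16 in EEC (Stem 1, Ent 1), 6 to 26 in SecPDG over AbsPro (AbsPro 2, EEC 1), 0 to 5 in tuft cells against SecPDG (EEC 1) and 38 to 42 over the 6 cell types. Calls in EEC, of genes or distal shares, are not given for fits without 1 EEC library, where the other is assumed to vary like the other groups. Exon events and other distal shares stayed at 0 calls of the 44 genes. Of all genes called, the share called higher moved with the scaling: it was 68.0% in SecPDG under TMM and 44.2% with library totals, 53.7% and 40.5% in SecPDG over AbsPro, 48.4% in Ent under TMM, 75.6% with size factors and 71.0% with library totals, and 54.2%, 77.5% and 63.8% in EEC.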
